A study of Mus musculus with 12 samples.

Results

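Bulk RNA sequencing was used to set Treg cells of tumors against Treg cells of lymph nodes; Treg (regulatory T) cells are the Foxp3-expressing CD4 T cells that keep immune responses in check. The comparison set 3 libraries of tumor pTreg, Treg cells that arose in the periphery from transferred Foxp3-negative CD4 T cells, against 4 libraries of unselected Treg cells taken out of the lymph nodes of mice without a tumor (labelled total Treg). These were all libraries labelled as either group, 7 of the 12 in the series. The other 5 libraries, of tumor tTreg (transferred Treg cells that came from spleen and lymph nodes), served only as a further point of reference and shared the estimate of spread. Hosts were TCRbd-/- mice, which lack their own alpha-beta and gamma-delta T cells and keep B cells, NK cells and myeloid cells. They received CD45.1 tTreg cells together with CD45.2 T cells, conventional CD4 and CD8, at 1 to 10 to 8, all from donors of the Foxp3YFP-cre strain, in which Foxp3-expressing cells carry a fluorescent reporter. Hepa1-6 cells, a mouse hepatoma line, were inoculated 3 days after transfer, and Treg cells were sorted from the CD4 T cells of the tumors on day 18. The lymph node group is labelled with the same pair of genotypes and with no treatment; whether its cells came from donor or host mice, and the ages of the mice, are not stated. The labels do not say that libraries of a group came from separate animals or sorts, so p-values measure only the spread between these libraries. Tissue, tumor, labelled treatment and the choice of cells by origin all differed between the groups and cannot be told apart here. Whether cell transfer also differed is not stated.

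As background, Treg cells are held by Foxp3 together with Ikaros-family factors and the high-affinity interleukin-2 receptor, and resting Treg cells of lymph nodes share with naive T cells the receptors that bring cells into and keep them in lymphoid tissue. T helper 1 (Th1) cells are defined by the T-box factor T-bet (Tbx21) and by interferon gamma (Ifng). CD39 (Entpd1) and CD73 (Nt5e) on Treg cells break down extracellular ATP to adenosine, which dampens other lymphocytes. The title of the series names Treg cells converted from Th1 cells and CD39, so both sets of genes bear on its question.

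Foxp3, Satb1, Ifng and Gzmk were taken as the marker genes of the comparison, since they give the direction of change for the Treg factor, a chromatin organizer of the T lineage, the Th1 cytokine and a granule protease. Their upstream regions are shown to place the genes in the genome and to give the 250 bases that precede the most upstream RefSeq start site (RefSeq, GRCm38.p6), 5′ to 3′ on the strand of the gene. Capitals mark matches, on either strand, to the T-box site GGTGTNA, the STAT site TTCNNNGAA, the AP-1 site TGANTCA or the NFAT core GGAAAA.
Foxp3, chrX:7579426-7579675, plus strand: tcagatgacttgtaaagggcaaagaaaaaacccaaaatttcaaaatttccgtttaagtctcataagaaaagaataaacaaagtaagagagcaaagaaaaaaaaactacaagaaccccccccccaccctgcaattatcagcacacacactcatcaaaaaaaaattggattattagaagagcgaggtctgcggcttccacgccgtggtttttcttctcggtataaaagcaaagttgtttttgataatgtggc
Satb1, chr17:51833291-51833540, minus strand: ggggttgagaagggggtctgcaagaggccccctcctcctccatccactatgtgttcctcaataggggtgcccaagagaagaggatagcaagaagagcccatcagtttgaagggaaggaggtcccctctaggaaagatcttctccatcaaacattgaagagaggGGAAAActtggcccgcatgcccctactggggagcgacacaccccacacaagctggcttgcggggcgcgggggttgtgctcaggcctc
Ifng, chr10:118440796-118441045, plus strand: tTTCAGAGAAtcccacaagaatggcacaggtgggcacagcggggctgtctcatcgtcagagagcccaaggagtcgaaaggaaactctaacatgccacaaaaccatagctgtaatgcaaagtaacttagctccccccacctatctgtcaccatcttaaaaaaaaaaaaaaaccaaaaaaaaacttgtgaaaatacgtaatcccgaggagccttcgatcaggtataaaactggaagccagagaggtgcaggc
Gzmk, chr13:113180966-113181215, minus strand: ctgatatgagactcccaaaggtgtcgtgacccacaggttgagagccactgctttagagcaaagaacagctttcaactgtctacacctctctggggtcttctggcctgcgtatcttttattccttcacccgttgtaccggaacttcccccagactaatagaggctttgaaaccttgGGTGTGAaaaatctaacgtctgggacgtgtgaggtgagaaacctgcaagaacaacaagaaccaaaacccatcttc
The Foxp3 window held none of the 4 motifs and the other windows held 1 match each. Satb1 had an NFAT core whose first base lay 87 bases before the start site, Ifng a STAT site at 249 bases and Gzmk a T-box site at 75 bases. The T-box site was found in 8.61% of all 32851 windows of this length, the STAT site in 7.02%, the AP-1 site in 6.75% and the NFAT core in 20.4%. A match describes these letters only. Foxp3 spans chrX:7573644-7595245 in the GENCODE vM21 annotation, so the window above lies inside the span that this annotation gives the gene. The Gzmk window likewise lies inside the span of its gene, chr13:113171608-113225908. Satb1 spans chr17:51736187-51833290 and Ifng chr10:118441046-118445892, and all 4 genes are protein coding.

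Total counts were 14.6 to 17.3 M per lymph node library and 18.0 to 18.2 M per tumor pTreg library, with 18462 to 18971 and 20862 to 20910 genes detected. The summed level of the 4 CD3 genes (Cd3d, Cd3e, Cd3g and Cd247, the signalling chains of the T cell receptor) was 1234, 1249, 1258 and 1248 CPM (counts scaled to the total counts of the library) in the lymph node libraries and 251, 248 and 260 CPM in tumor pTreg. Every tumor library lay below every lymph node library, and the group mean was 4.93-fold lower (1247 ± 9.98 against 253 ± 6.34 CPM, SD; exact two-sided permutation test, p = 0.0571, the smallest that 4 against 3 libraries allow). The mean in tumor tTreg was 21.6 ± 1.71 CPM (n = 5), so tumor pTreg held 11.7-fold more CD3 transcript than the other tumor group. In bulk samples fewer T cells and less RNA per T cell cannot be told apart.

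Transcripts that define other cells were abundant in the tumor libraries. Calls in this paragraph are in CPM (test given below), where 47.6% of all genes tested were higher and 39.8% lower. Summed macrophage markers (16 genes) were 56.1 to 64.9 CPM in lymph node Treg and 10717 to 10768 CPM in tumor pTreg, and 16 of 16 were called higher. Summed hepatoma markers (16 genes) were 7.67 to 9.71 and 5438 to 5817 CPM, and all 9 members that passed the count filter were called higher. Albumin (Alb), a liver protein made by hepatoma cells, was at 0, 0, 0 and 0.174 CPM in lymph node Treg and at 2267, 2062 and 2178 CPM in tumor pTreg. Apoe, the apolipoprotein used as a macrophage marker, rose from 16.9 CPM (15.6 to 18.7) to 4072 ± 22.6 CPM. It held that much of the macrophage sum in tumor pTreg, and which cells it came from was not tested. Fibroblast markers summed to 4.83 ± 1.05 and 151 ± 9.78 CPM, neutrophil markers to 2.37 ± 0.106 and 47.1 ± 1.29 CPM, and erythroid markers to 0.496 ± 0.871 and 34.1 ± 11.3 CPM. Dendritic cell markers summed to 348 ± 3.89 and 6226 ± 141 CPM, but of 12 members 7 were called higher, 3 lower and 2 neither way, and Cd74, the MHC class II chaperone that macrophages also express, held 4196 CPM of the tumor sum. B cell and plasma cell markers summed to 15.3 ± 1.10 and 81.7 ± 1.91 CPM, although of 9 tested members 5 were called lower and 1 higher. The member that rose was Sdc1, a proteoglycan of plasma cells and epithelial cells, from 0.534 ± 0.175 to 77.0 ± 1.52 CPM. Endothelial markers summed to 190 ± 2.54 and 65.2 ± 4.05 CPM, of which Pecam1, an adhesion molecule that T cells share, held 189 ± 2.53 and 30.9 ± 0.707 CPM; Pecam1 was called lower and the other 8 tested members higher. The B cell genes Cd79a and Ms4a1 were each at 0.278 CPM or below in every tumor pTreg library.

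Each gene was read on 2 scales. The whole-library scale compares CPM with TMM factors, and the CD3 scale compares levels per count of the 4 CD3 genes. A gene that fell by more than the CD3 transcripts is lower on both. Of 15705 genes tested (edgeR quasi-likelihood test, Benjamini-Hochberg adjusted p below 0.05), 7482 (47.6%) were called higher in tumor pTreg and 6253 (39.8%) lower on the whole-library scale, together 87.5%, and the groups did not overlap in CPM for 85.9%. On the CD3 scale 14354 (91.4%) were higher and 608 (3.87%) lower, together 95.3%. The median log2 fold change over all genes was 0.12 on the first scale and 2.31 on the second. All 608 genes lower on the CD3 scale were also lower on the whole-library scale, so the share of genes lower on both was 3.87% as well. This follows from the scaling, which raised log2 values by a median of 2.19. A gene higher in CPM is likewise all but bound to be higher per CD3 count. The 2 scales are therefore not separate readings. The 4 reference genes did not move alike, with log2 values on their common scale of -0.24, -0.23, 0.20 and 0.17 for Cd3d, Cd3e, Cd3g and Cd247, so small values per CD3 count depend on the reference. The calls of Ctla4 and Il2rb given below were lost with Cd3g or Cd247 alone, that of Il2rb also with a list of 21 T cell genes as the reference, that of Foxo1 with Cd3d or Cd3e alone, and those of Il27ra, S1pr1 and Sh2d1a with Cd3d alone. Itgae, Gata3, Lck, Trac and Tnfsf10, which did not pass the test per CD3 count, were called higher with Cd3e alone and lower with the list of 21 genes. A further 4914 genes (31.3%) were lower in CPM and higher per CD3 count. Of the 7482 genes higher on both scales, 6621 differed by less than 1.5-fold between tumor pTreg and tumor tTreg, and 98 (0.624%) were at least 5-fold higher in tumor pTreg than in tumor tTreg (adjusted p below 0.05). Over all genes regardless of the lymph node, 438 (2.79%) met this 5-fold limit, and they are called T-linked below, since the tumor groups differed 11.7-fold in CD3 transcript. The limit picks genes that are high in tumor pTreg, so it is a description and supports nothing about the comparison. The name stands for this limit only. Of the 23 Treg core genes described below 3 met it, while Foxp3 (2.34-fold), Ikzf2 (2.07-fold), Il2ra (3.57-fold) and Ctla4 (4.96-fold) did not. A gene without the label can therefore still be a T cell gene. Some genes passed by more than the CD3 difference, such as Ifng (36.6-fold) and Il21 (98.3-fold).

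**Figure D1:**
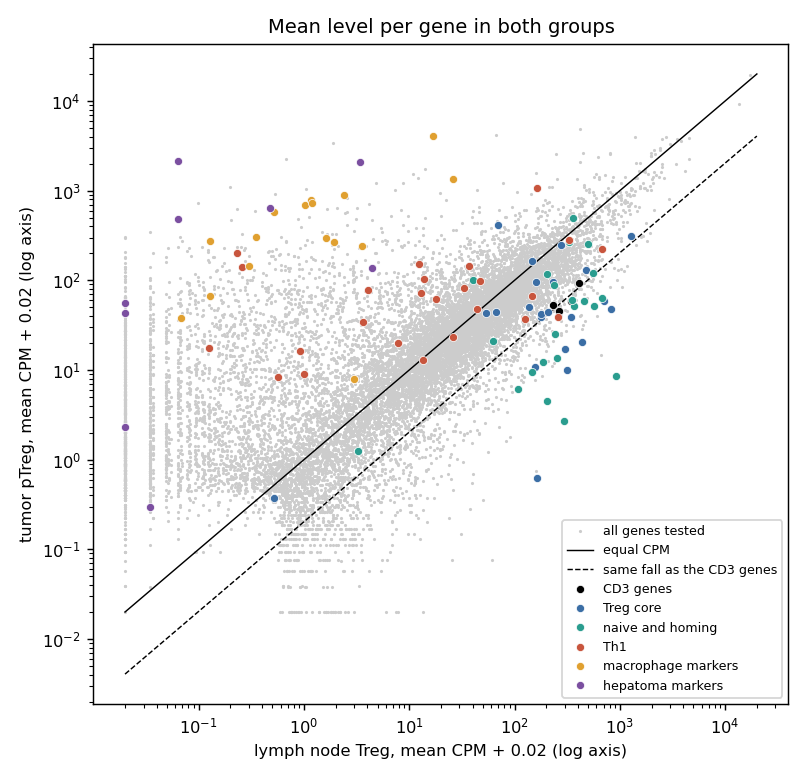
Mean level of each of the 15705 genes tested in lymph node Treg (x axis, CPM + 0.02, log axis) and tumor pTreg (y axis, same scale), with the CD3 genes and 5 gene lists in color; the solid line marks equal CPM and the dashed line the 4.93-fold fall of the CD3 sum. Many Treg core and naive genes lie near or below the dashed line, many Th1 genes above the solid line, and most macrophage and hepatoma markers far above it at the left.

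Foxp3 and Satb1 fell on both scales, and Ifng and Gzmk rose on both. Foxp3, the factor that defines Treg cells, was at 431, 455, 433 and 443 CPM in the lymph node libraries and at 19.7, 20.4 and 20.9 CPM in tumor pTreg. Every tumor library was more than an order of magnitude below every lymph node library. The fitted fall was 20.1-fold on the whole-library scale (log2 fold change -4.33 ± 0.0402 SE, edgeR adjusted p = 7.51e-35). Per 100 CD3 counts Foxp3 was at 35.3 ± 0.854 (SD, n = 4) and 8.03 ± 0.168 (n = 3), a 4.40-fold fall (log2 -2.14 ± 0.0889, edgeR adjusted p = 6.22e-100). All edgeR p-values per CD3 count treat the CD3 reference as free of error. They come from a separate fit, so a smaller p than in CPM does not mark stronger evidence. Tumor tTreg held 8.74 ± 0.478 CPM of Foxp3, 2.34-fold less than tumor pTreg. Per 100 CD3 counts the order of the tumor groups was the opposite, with 40.6 ± 2.98 (n = 5) in tumor tTreg. The other Treg markers Il2ra, Ctla4 and Ikzf2 were detected in every tumor pTreg library, between 45.5 and 131 CPM.

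Satb1, which organizes chromatin loops in T cells, was at 580, 582, 575 and 560 CPM in lymph node Treg and at 50.2, 54.4 and 51.8 CPM in tumor pTreg. The groups did not overlap on either scale, with 46.0 ± 0.959 against 20.6 ± 1.14 per 100 CD3 counts. The fall was 10.2-fold in CPM and 2.23-fold per CD3 count (log2 -1.16 ± 0.0814, edgeR adjusted p = 8.87e-42).

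Ifng was at 14.6, 11.9, 14.4 and 14.1 CPM in lymph node Treg and at 101, 102 and 104 CPM in tumor pTreg. It rose 7.98-fold in CPM (log2 3.00 ± 0.0588, edgeR adjusted p = 3.84e-27) and 36.6-fold per CD3 count, from 1.10 ± 0.105 to 40.5 ± 0.585 per 100 CD3 counts. Tumor tTreg held 2.81 ± 0.534 CPM. Gzmk, the granule protease granzyme K, had 2 counts in the 4 lymph node libraries together (0, 0, 0.0577 and 0.0581 CPM) and 730 in tumor pTreg (13.3, 13.2 and 13.9 CPM). The ratio of pooled levels was 445, with a 95% exact binomial interval of 123 to 3681 that covers counting error only. The exact two-sided permutation p for each of Foxp3, Satb1, Ifng and Gzmk per CD3 count was 0.0571, the smallest possible with 35 splits. These genes were taken as markers of the comparison, and 85.9% of all genes did not overlap in CPM. These p-values therefore add no support.

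**Figure D2:**
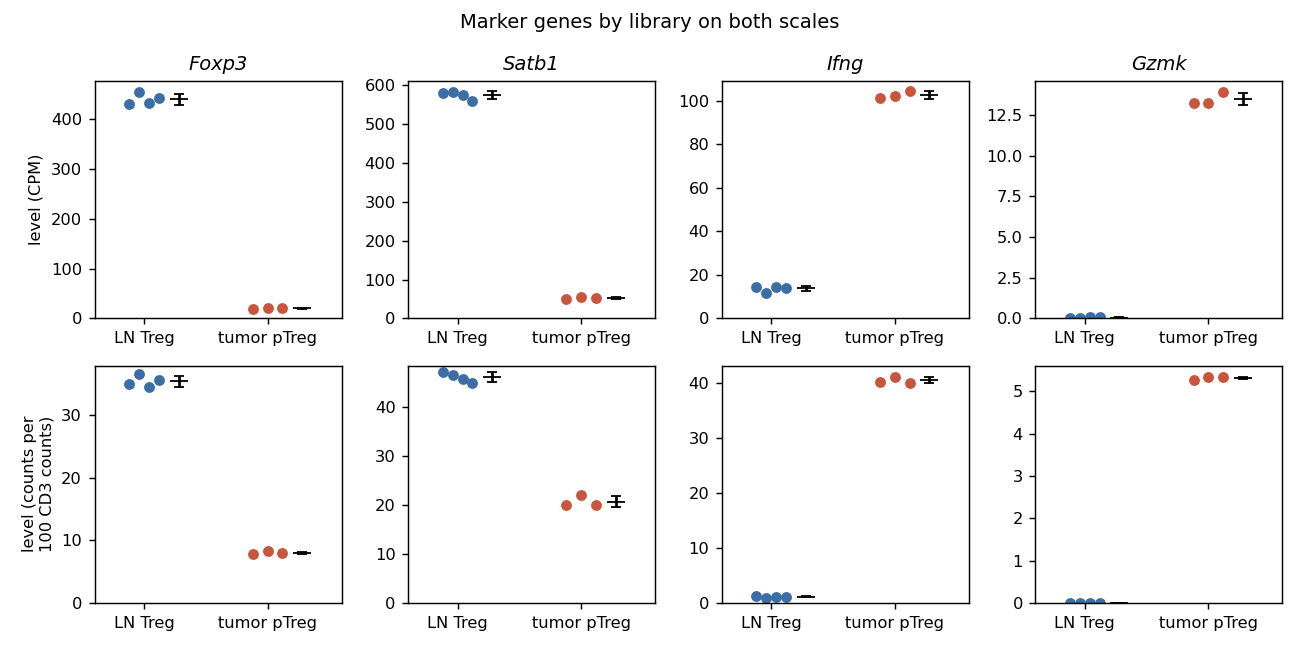
Level of Foxp3, Satb1, Ifng and Gzmk in each library, in CPM (top row) and in counts per 100 CD3 counts (bottom row); points are libraries and the bars give mean and SD. Foxp3 and Satb1 are lower and Ifng and Gzmk higher in all 3 tumor pTreg libraries than in all 4 lymph node libraries, on both scales.

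Genes of the Treg core were mostly lower in CPM, and a part of them also lower per CD3 count. Of 23 members, 19 fell and 2 rose on the whole-library scale (median log2 -1.92, against 0.12 over all genes), and 8 fell and 13 rose on the CD3 scale (median 0.28, against 2.31 over all genes), where 3.87% of all genes were lower. The largest fall in the list was that of Gpr83, a G protein-coupled receptor used as a Treg surface marker. It was at 167, 161, 161 and 164 CPM in lymph node Treg and at 0.275, 0.779 and 0.774 CPM in tumor pTreg, 247-fold lower in CPM and 54.1-fold lower per CD3 count. Izumo1r, folate receptor 4, fell from 316 ± 12.7 to 9.99 ± 0.827 CPM, 6.41-fold per CD3 count. Ikzf2, the Ikaros-family factor Helios, was at 825, 806, 788 and 845 CPM and then at 45.5, 47.1 and 49.5 CPM, and its fall was 16.0-fold in CPM and 3.50-fold per CD3 count. Lrrc32, which presents latent TGF-beta at the Treg surface, and Ikzf4, the related factor Eos, fell 3.53-fold and 2.95-fold per CD3 count. These 5 genes therefore fell by more than the CD3 transcripts did.

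Not all of the core moved to the same degree. Ctla4, the inhibitory receptor of Treg cells, was at 485, 457, 474 and 489 CPM in lymph node Treg and at 130, 131 and 129 CPM in tumor pTreg. Ctla4 fell in CPM (log2 -1.77 ± 0.0336) and was higher per CD3 count (0.43 ± 0.0755, edgeR adjusted p = 2.14e-08). Itgae, the integrin CD103, fell in CPM (log2 -2.13 ± 0.0346) and did not pass the test per CD3 count (0.06 ± 0.0811, edgeR adjusted p = 0.451). Tigit, a co-inhibitory receptor, was at 53.9 ± 1.32 and 43.1 ± 1.02 CPM, so its small fall in CPM (log2 -0.22) was a 3.94-fold rise per CD3 count.

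The interleukin-2 pathway, on which Treg survival depends, was split in CPM. Of 15 members, 10 fell and 5 rose in CPM (median -1.53), against 39.8% and 47.6% of all genes. Per CD3 count 2 fell and 13 rose (median 0.67). Of all genes 91.4% rose on that scale, so the count of rises is near the background. Both genes lower on the CD3 scale were Il2ra and Bcl2. Il2ra, the alpha chain CD25, was at 707, 702, 698 and 713 CPM and then at 55.4, 61.0 and 60.4 CPM, a fall of 11.1-fold in CPM and 2.43-fold per CD3 count. Bcl2, a survival factor induced by this cytokine, went from 467 ± 7.20 to 34.8 ± 0.830 CPM, 2.73-fold lower per CD3 count. Il2rb, the beta chain, fell 3.79-fold in CPM and was 1.21-fold higher per CD3 count, and Jak1, the kinase bound to it, was 1.54-fold higher per CD3 count.

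The naive and lymph node homing genes had the lowest median of the T cell lists described here on both scales. Of 22 members, 20 fell and 2 rose in CPM (median -2.79), and 13 fell and 8 rose per CD3 count (median -0.59). Over all genes 39.8% fell in CPM and 3.87% per CD3 count. Ccr7, the receptor for lymph node chemokines, was at 255, 250, 255 and 251 CPM in lymph node Treg and at 14.3, 12.6 and 13.8 CPM in tumor pTreg. All tumor libraries lay below all lymph node libraries, and the fall was 17.3-fold in CPM and 3.78-fold per CD3 count. Nsg2 and Treml2, both used as markers of naive T cells, fell 22.4-fold and 9.22-fold per CD3 count. S1pr1, the receptor for exit from lymph nodes, fell 6.57-fold in CPM and 1.43-fold per CD3 count. Il7r, the interleukin-7 receptor of resting T cells, was at 458 ± 11.4 and 58.7 ± 2.30 CPM, 1.58-fold lower per CD3 count.

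Transcription factors of the T lineage were mostly lower in CPM and mostly higher per CD3 count. Of 30 members, 25 fell and 5 rose in CPM (median -1.06), and 10 fell and 19 rose per CD3 count (median 1.14). The shares of all genes that fell were 39.8% in CPM and 3.87% per CD3 count, where 91.4% rose. Tcf7, which encodes TCF-1 and maintains resting and memory T cells, was at 683, 694, 674 and 656 CPM and then at 62.9, 64.5 and 60.8 CPM, 10.0-fold lower in CPM and 2.19-fold lower per CD3 count. Its partner Lef1 fell from 188 ± 4.24 to 12.4 ± 1.12 CPM (3.08-fold per CD3 count), and Bach2, a repressor that limits effector differentiation, from 148 ± 6.29 to 9.50 ± 0.404 CPM (3.15-fold). Bcl11b, which guards T cell identity, fell 2.11-fold and Foxp1, which keeps T cells quiescent, 1.95-fold per CD3 count. Foxo1, an activator of Il7r, fell 5.48-fold in CPM and 1.20-fold per CD3 count. Gata3, the Th2 factor that Treg cells also use, fell in CPM (log2 -2.23) and did not pass the test per CD3 count (-0.03 ± 0.0854, edgeR adjusted p = 0.696).

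Of the genes that carry the T cell receptor signal, 26 of 28 fell and 2 rose in CPM (median -1.62), and 6 fell and 20 rose per CD3 count (median 0.58). Among all genes 39.8% fell in CPM, and 3.87% fell and 91.4% rose per CD3 count. The kinase Prkcq, which relays the signal to NF-kB, was at 456, 445, 428 and 450 CPM and then at 30.9, 32.6 and 30.9 CPM, 2.87-fold lower per CD3 count. Txk, a kinase of the Tec family, and Trat1, an adaptor of the receptor complex, fell 2.81-fold and 1.80-fold per CD3 count. Lck, the first kinase of the cascade, did not pass the test per CD3 count (log2 -0.06 ± 0.0757, edgeR adjusted p = 0.42), and its value was 0.16 with Cd3e alone, -0.26 with Cd3g alone and -0.32 with the list of 21 T cell genes, each called. Zap70, the kinase that Lck activates, was 1.56-fold higher per CD3 count. Trac, the constant segment of the alpha chain, was at 459, 477, 465 and 414 CPM and then at 93.6, 97.5 and 91.5 CPM, a value per CD3 count that did not pass the test (0.03 ± 0.0775, edgeR adjusted p = 0.668). Cd4 was at 651 ± 12.8 and 326 ± 4.69 CPM, and so rose from 52.2 ± 1.35 to 129 ± 3.71 per 100 CD3 counts. Tumor tTreg held 92.4 ± 4.09 CPM of Cd4, 3.54-fold less than tumor pTreg, so Cd4 did not track the 11.7-fold difference in CD3 between the tumor groups.

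Costimulatory receptors were lower in CPM, where 15 of 16 fell and none rose (median -1.60), while per CD3 count 4 fell and 11 rose (median 0.59). For all genes the shares were 39.8% lower in CPM, and 3.87% lower and 91.4% higher per CD3 count. Cd27, a receptor of the TNF family, fell from 206 ± 4.94 to 12.5 ± 0.357 CPM, 3.33-fold per CD3 count, and Tnfrsf25, the death receptor DR3 that expands Treg cells, fell 2.39-fold. Slamf6, an adhesion receptor of less differentiated T cells, fell 1.68-fold per CD3 count. Cd28, the main costimulator, was at 239, 236, 223 and 236 CPM and then at 78.0, 85.4 and 86.0 CPM, which was 1.75-fold higher per CD3 count. Icos, its inducible relative, was 2.35-fold higher per CD3 count.

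Among genes at 10 CPM or more in lymph node Treg, the largest falls per CD3 count included several that nearly reached 0 in the tumor. Of the 608 genes lower on both scales, 333 had such a level. Kcna2, a voltage-gated potassium channel, was at 14.1, 15.0, 11.9 and 12.8 CPM in lymph node Treg and had no count in tumor pTreg, which makes it at least 242-fold lower in CPM and at least 49.2-fold lower per CD3 count (floor of 3 counts over the group). Slc28a2b, of the concentrative nucleoside transporter family, had 4076 counts in lymph node Treg and 3 in tumor pTreg, a ratio of 226 per CD3 count (95% interval 77.4 to 1098). Gata1, the erythroid factor, had 1683 and 3 counts, a ratio of 93.4 per CD3 count (31.9 to 453), although summed erythroid markers were higher in tumor pTreg. St8sia6, a sialyltransferase, was at 165, 159, 153 and 160 CPM and then at 0.825, 0.724 and 0.608 CPM, 44.8-fold lower per CD3 count. Arhgap20, a GTPase-activating protein, Kcnf1, a potassium channel subunit, and Tet1, an enzyme that oxidizes methylated cytosine, fell 47.4-fold, 29.0-fold and 23.3-fold per CD3 count. Arhgap20 had 7 counts in tumor pTreg, and its log2 value per CD3 count was -5.57, -5.00 without tumor replicate 1 and -6.72 without tumor replicate 3. The fitted log2 of Slc28a2b moved from -7.72 to -8.62 without tumor replicate 3, and that of Gata1 from -6.45 to -7.37 without tumor replicate 1. Drc1 and Sp6 were also among these falls (16.9-fold and 12.3-fold per CD3 count), as were Gpr83 and Nsg2 described above. Of these genes only Nsg2 was T-linked, at 2.68 ± 0.364 CPM in tumor pTreg and 0.131 ± 0.0488 CPM in tumor tTreg.

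The Th1 genes went the other way. Of 26 members, 19 rose and 5 fell in CPM (median 1.98), and 25 rose and 1 fell per CD3 count (median 4.18). Over all genes 47.6% rose in CPM and 91.4% per CD3 count, so the count on the second scale is near the background. The gene that fell on both was Il27ra, a receptor chain for interleukin-27 (6.14-fold and 1.34-fold). Of the 19 that rose, 10 were T-linked and 6 were within 1.5-fold between the tumor groups. Among all 7482 genes that rose, 98 were T-linked and 6621 within 1.5-fold. Tbx21, the factor T-bet, was at 3.77, 3.36, 3.75 and 3.54 CPM in lymph node Treg, at 33.4, 35.8 and 34.4 CPM in tumor pTreg and at 1.78 ± 0.434 CPM in tumor tTreg. Every tumor pTreg library stood above all others, and Tbx21 rose 10.2-fold in CPM and 46.8-fold per CD3 count (log2 5.55 ± 0.111). Eomes, the related T-box factor of killer cells, was at 1.29, 1.10, 0.520 and 0.697 CPM and rose to 16.0, 17.4 and 15.8 CPM, with 0.208 ± 0.0712 CPM in tumor tTreg. Nkg7, a granule membrane protein, rose from 12.9 ± 1.43 to 72.8 ± 2.26 CPM and was at 2.77 ± 0.217 CPM in tumor tTreg. Cxcr6, a chemokine receptor of T cells that stay in tissue, was at 18.4, 17.4, 17.9 and 17.3 CPM and then at 58.2, 63.0 and 64.8 CPM, and at 1.91 ± 0.472 CPM in tumor tTreg.

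Receptors and signal carriers of the Th1 pathway were uneven. Il12rb2, the inducible chain of the interleukin-12 receptor, rose from 0.978 ± 0.332 to 9.03 ± 0.617 CPM, and Il18rap, a chain of the interleukin-18 receptor, from 32.7 ± 0.442 to 82.2 ± 1.61 CPM. Stat4, which carries the interleukin-12 signal, fell 3.12-fold in CPM and was 1.47-fold higher per CD3 count. Cxcr3, the Th1 chemokine receptor, did not pass the test in CPM (26.2 ± 1.62 and 23.4 ± 1.09 CPM, edgeR adjusted p = 0.389) and was 4.40-fold higher per CD3 count. The chemokine Ccl5 was at 4.47, 3.77, 4.33 and 3.72 CPM, then at 82.2, 75.1 and 79.2 CPM, and at 9.84 ± 1.24 CPM in tumor tTreg. Ccl3 and Ccl4 rose as well, Ccl3 from 0.211 ± 0.119 to 203 ± 5.96 CPM, but Ccl3 was at 211 ± 12.4 CPM in tumor tTreg and so was not T-linked.

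Cytokines of helper T cells rose in more than a single lineage. Of 16 tested members, 10 rose and 5 fell in CPM (median 2.04, with 47.6% of all genes higher). On the CD3 scale 13 rose and 2 fell (median 4.23, with 91.4% of all genes higher). Of the 10 that rose in CPM, 8 were T-linked. Csf2, which encodes the myeloid growth factor GM-CSF, was at 0.0588, 0.0686, 0.115 and 0.0581 CPM and then at 11.8, 9.63 and 11.6 CPM, 143-fold higher in CPM. Il21, the cytokine of follicular helper cells that also drives CD8 T cells, was at 0.235, 0.274, 0.231 and 0.407 CPM and then at 9.85, 10.5 and 10.5 CPM, 37.5-fold higher. In tumor tTreg Csf2 was at 0.448 ± 0.118 and Il21 at 0.0989 ± 0.106 CPM. The Th2 cytokine Il13 was at 0.255 ± 0.0623 and 7.21 ± 0.651 CPM, the Th17 cytokines Il22 at 0.0633 ± 0.0564 and 6.07 ± 1.14 CPM and Il17a at 0.0925 ± 0.0404 and 3.56 ± 0.178 CPM. Tnfsf11, the osteoclast factor RANKL, rose from 37.9 ± 2.47 to 78.4 ± 1.17 CPM. Il16, a chemoattractant for CD4 cells, fell 2.29-fold per CD3 count. Lta, lymphotoxin alpha, fell 1.20-fold per CD3 count, a call that was lost with Cd3d or Cd3e alone, in DESeq2 (adjusted p = 0.151), without lymph node replicate 4 (edgeR adjusted p = 0.0667) and without tumor pTreg replicate 3 (0.0654).

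Most factors of helper lineages other than Th1 fell in CPM and rose per CD3 count. Of 18 tested members, 12 fell and 6 rose in CPM (median -0.91, with 39.8% of all genes lower). The CD3 scale had 4 lower and 12 higher (median 1.29, with 91.4% of all genes higher). Ccr6, a chemokine receptor of Th17 and resting Treg cells, was at 29.0, 30.1, 29.4 and 25.6 CPM and then near 1 CPM in each tumor pTreg library, 5.79-fold lower per CD3 count. Cxcr5, the follicular helper receptor, and Sh2d1a, the adaptor SAP of SLAM-family receptors, fell 1.75-fold and 1.43-fold per CD3 count. Rora, a nuclear receptor of Th17 and tissue cells, rose from 94.6 ± 3.53 to 244 ± 7.11 CPM and was at 33.6 ± 0.972 CPM in tumor tTreg.

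Most cytotoxic genes rose in CPM. Of 14 tested members, 12 rose and 2 fell in CPM (median 1.23, with 47.6% of all genes higher), 13 rose and none fell per CD3 count (median 3.41, with 91.4% of all genes higher), and 8 of the 12 were T-linked. Beside Gzmk, described above, Gzma rose from 0.837 ± 0.249 to 5.79 ± 0.0641 CPM and Gzmb from 30.3 ± 2.28 to 53.7 ± 0.900 CPM. Fasl, the ligand that triggers death through Fas, was at 7.65, 7.68, 7.62 and 8.37 CPM, then at 20.1, 20.8 and 19.7 CPM, and at 0.492 ± 0.145 CPM in tumor tTreg. Tnfsf10, the death ligand TRAIL, fell in CPM (log2 -2.21) and did not pass the test per CD3 count (-0.02 ± 0.0861, edgeR adjusted p = 0.844). The 12 largest T-linked rises among 27 such genes with at least 10 CPM in tumor pTreg were Gzmk, Csf2, Ccl1, Klrc1, Itga1, Il21, Sytl3, Ccl5, Eomes, Tbx21, Ifng and Dusp14. Klrc1, the NK-type receptor NKG2A, was at 0.353, 0.206, 0.346 and 0.581 CPM and then at 15.7, 16.6 and 17.1 CPM, Itga1, the collagen-binding integrin CD49a, rose to 12.3 ± 1.27 CPM and Ccl1, a ligand of CCR8, to 10.4 ± 0.454 CPM.

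Genes of CD8 T cells and NK cells moved beside these lists. Cd8a was at 8.12, 7.89, 9.81 and 7.15 CPM in lymph node Treg, at 24.0, 24.3 and 22.5 CPM in tumor pTreg and at 0.667 ± 0.186 CPM in tumor tTreg, and was T-linked. Cd8b1 was at 14.1, 10.4, 13.2 and 13.5 CPM and at 9.85, 9.63 and 8.19 CPM, lower in CPM. It was at 0.438 ± 0.160 CPM in tumor tTreg and was T-linked too. Both genes were higher per CD3 count, Cd8a 14.1-fold and Cd8b1 3.54-fold. The sum of both was 18.3 to 23.0 CPM and 30.7 to 33.9 CPM. Cd4 was at 326 CPM in tumor pTreg, but it did not track CD3 between the tumor groups. Per 100 CD3 counts Cd8a was at 0.661 ± 0.0874 in lymph node Treg and 9.33 ± 0.598 in tumor pTreg, and Cd8b1 at 1.03 ± 0.136 and 3.65 ± 0.437. Of 9 tested NK and innate markers 7 were called higher and 1 lower in CPM, against 47.6% and 39.8% of all genes. Of the 7 that rose, 3 were T-linked and 4 within 1.5-fold between the tumor groups, against 98 and 6621 of the 7482 genes that rose. The markers summed to 13.9 to 16.7 and 351 to 361 CPM. Of the tumor pTreg sum, Fcer1g and Tyrobp, adaptors that macrophages also express, held 147 ± 4.29 and 139 ± 1.41 CPM. The defining NK gene Ncr1 had no count in tumor pTreg, which allows up to 0.167 CPM per library, and was at 0.238 ± 0.0855 CPM in lymph node Treg. Klrb1c, which encodes NK1.1, was at 0.834 ± 0.171 and 1.14 ± 0.210 CPM and did not pass the test in CPM (edgeR adjusted p = 0.0677, and 0.0445 without lymph node replicate 3); per CD3 count it was 6.63-fold higher (edgeR adjusted p = 6.54e-17). The part that CD8 T cells had in the rise of cytotoxic and Th1 genes was not tested.

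**Figure D3:**
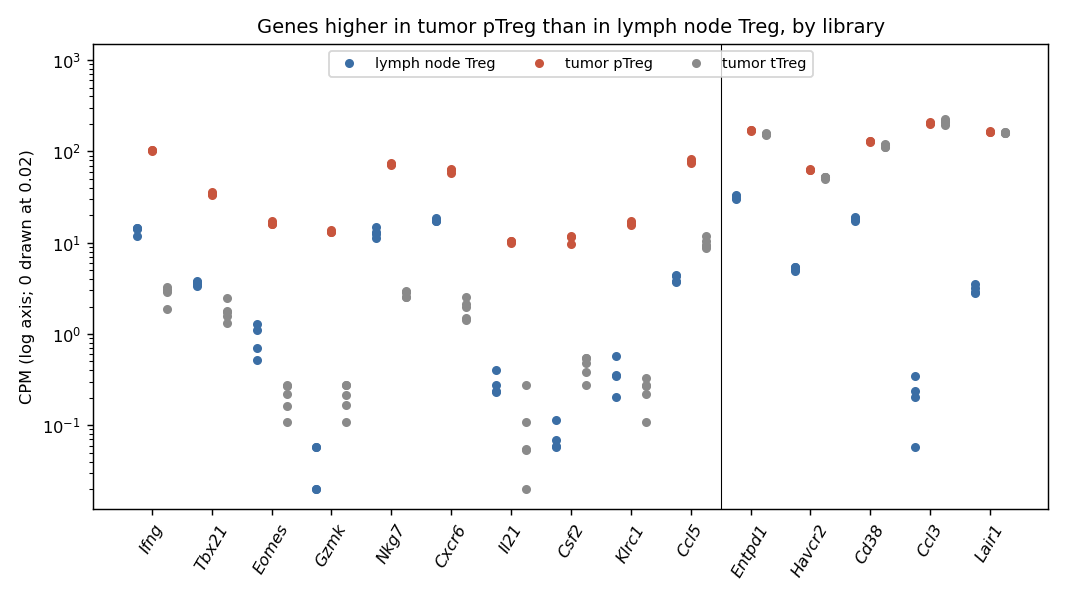
Level in CPM (log axis, 0 drawn at 0.02) of 15 genes higher in tumor pTreg (red) than in lymph node Treg (blue), with tumor tTreg in grey; each point is a library. The 10 genes left of the line are far lower in tumor tTreg than in tumor pTreg, and the 5 to the right are near level in both tumor groups.

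Entpd1, the gene of CD39, rose, but it did not track CD3 transcript between the tumor groups. It was at 30.5, 33.2, 29.9 and 32.5 CPM in lymph node Treg, at 167, 172 and 169 CPM in tumor pTreg and at 155 ± 1.99 CPM in tumor tTreg. The rise over lymph node Treg was 5.79-fold in CPM (log2 2.53 ± 0.0365, edgeR adjusted p = 2.17e-30) and 26.5-fold per CD3 count. Tumor pTreg exceeded tumor tTreg 1.10-fold while the CD3 sum differed 11.7-fold. Nt5e, the gene of CD73 that acts on the product of CD39, was at 357, 343, 338 and 346 CPM in lymph node Treg and at 37.1, 40.5 and 39.2 CPM in tumor pTreg, 8.25-fold lower in CPM and 1.80-fold lower per CD3 count. The pair therefore moved in opposite directions on both scales. Nt5e was at 8.50 ± 1.05 CPM in tumor tTreg. In the purine list 15 of 20 members were higher and 4 lower in CPM (median 1.54, with 47.6% of all genes higher). On the CD3 scale 18 rose and 1 fell (median 3.73, with 91.4% of all genes higher). Of the 15 that rose in CPM, 14 were within 1.5-fold between the tumor groups. This is near the background, 6621 of the 7482 genes that rose. Cd38, which consumes NAD, rose from 18.3 ± 0.688 to 129 ± 1.77 CPM and was at 115 ± 3.13 CPM in tumor tTreg.

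Inhibitory receptors moved both ways in CPM. Of 16 members, 7 rose and 9 fell in CPM (median -0.19), and 12 rose and 4 fell per CD3 count (median 2.01). Over all genes 47.6% rose and 39.8% fell in CPM, and 91.4% rose and 3.87% fell per CD3 count. None of the 7 that rose was T-linked, and 6 were within 1.5-fold between the tumor groups. Among all 7482 genes that rose, 98 were T-linked and 6621 within 1.5-fold, so these counts are near the background. Havcr2, the gene of TIM-3, was at 5.12, 4.87, 5.43 and 5.40 CPM, then at 62.2, 63.8 and 63.2 CPM, and at 52.3 ± 1.44 CPM in tumor tTreg. Lair1, a collagen receptor, rose from 3.10 ± 0.303 to 163 ± 2.52 CPM and was at 160 ± 1.89 CPM in tumor tTreg. Lag3, which binds MHC class II, rose from 10.5 ± 0.544 to 42.6 ± 1.47 CPM, 2.25-fold above tumor tTreg. Pdcd1, the gene of PD-1, was at 54.1, 59.4, 63.6 and 57.2 CPM and at 49.8, 49.4 and 47.4 CPM, slightly lower in CPM (log2 -0.16) and 4.11-fold higher per CD3 count, and it was T-linked (2.10 ± 0.260 CPM in tumor tTreg). Btla, an inhibitory receptor of resting lymphocytes, fell from 237 ± 2.53 to 11.9 ± 1.00 CPM, 4.02-fold per CD3 count, and Cd200 fell 2.43-fold.

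Among chemokine receptors 7 of 20 rose and 12 fell in CPM (median -1.28), and 12 rose and 5 fell per CD3 count (median 0.91). The shares of all genes were 47.6% higher and 39.8% lower in CPM, and 91.4% and 3.87% per CD3 count. Cx3cr1 and Ccr1, both carried by myeloid cells, rose to 180 ± 1.19 and 174 ± 5.54 CPM and were at 156 ± 6.01 and 188 ± 1.19 CPM in tumor tTreg. Cxcr6 was the T-linked member among those that rose, and Ccr6, Ccr7, Cxcr5 and S1pr1 were among those that fell. The macrophage sums given above were 10744 ± 25.7 CPM in tumor pTreg and 10799 ± 224 CPM in tumor tTreg, level where Entpd1, Havcr2, Lair1 and Ccl3 were level, and the part of macrophages in these rises was not tested.

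Effector Treg genes were mixed as well. Of 20 tested members, 13 rose and 7 fell in CPM (median 0.65, with 47.6% of all genes higher). Per CD3 count 19 rose and none fell (median 2.84, with 91.4% of all genes higher). Of the 13 that rose in CPM, 9 were within 1.5-fold between the tumor groups, against 6621 of the 7482 genes that rose. Il10, the suppressive cytokine, was at 12.9, 12.2, 15.8 and 14.4 CPM, then at 20.8, 23.5 and 23.4 CPM, and at 19.1 ± 1.40 CPM in tumor tTreg. Fgl2, a secreted suppressor that macrophages also make, rose from 37.0 ± 1.93 to 274 ± 8.62 CPM and was at 293 ± 13.2 CPM in tumor tTreg. In the exhaustion and tissue residency list 17 of 24 rose and 7 fell in CPM (median 1.19), 22 rose and none fell per CD3 count (median 3.38), a count near the same background, and 5 of the 17 were T-linked. Nr4a3, a factor induced by antigen receptor signals, rose from 83.0 ± 1.84 to 514 ± 18.0 CPM, 2.06-fold above tumor tTreg. Cd69, the early activation marker that holds T cells in tissue, fell 2.31-fold in CPM and was 1.98-fold higher per CD3 count.

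**Figure D4:**
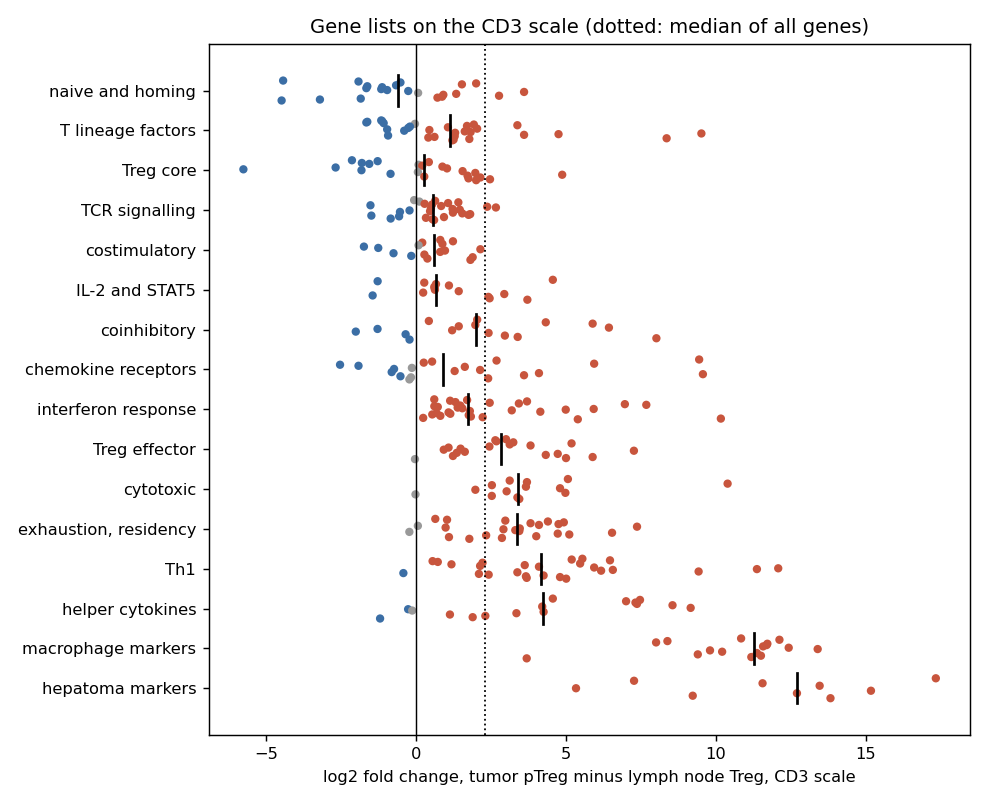
Log2 fold change on the CD3 scale (tumor pTreg minus lymph node Treg) of each tested member of 16 gene lists; red points were called higher, blue lower and grey not called at an adjusted p below 0.05, black bars are list medians and the dotted line is the median of all 15705 genes, 2.31. The naive and homing list has its median below 0, at -0.59, the medians of Th1 genes and helper cytokines lie above 4, and those of macrophage and hepatoma markers are the highest of the 16.

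General cell programs were also measured, and none of their members was T-linked. Over all genes 47.6% rose and 39.8% fell in CPM, with a median log2 of 0.12. Of 24 cell cycle genes, 23 rose and 1 fell in CPM (median 0.98), with Mki67, a marker of dividing cells, at 103 ± 5.50 and 195 ± 3.62 CPM and at 197 ± 5.38 CPM in tumor tTreg. Of 22 glycolysis and hypoxia genes, 19 rose and 3 fell (median 1.79), among them Hk2, the first enzyme of glycolysis, from 8.59 ± 0.915 to 233 ± 7.84 CPM, and Vegfa, the vessel growth factor, from 1.45 ± 0.296 to 162 ± 4.32 CPM. Of 30 interferon response genes, 11 rose and 18 fell in CPM (median -0.47) and all 30 rose per CD3 count (median 1.73, below the 2.31 of all genes). Cxcl9, an interferon gamma target made by macrophages, rose from 0.788 ± 0.380 to 185 ± 3.75 CPM. Of 22 activation genes of the AP-1, NF-kB and EGR families, 12 rose and 10 fell in CPM (median 0.23), near the background. Of 14 genes of tissue dissociation and heat stress, 13 rose and 1 fell (median 0.79). Among these Hspa1a, an inducible heat shock protein, was at 43.8 ± 2.83 and 1021 ± 3.95 CPM. Of 22 ribosomal protein genes, 17 fell and 2 rose (median -0.43), Rpl3 1.82-fold. Mitochondrial transcripts made up 3.92 to 4.10% of counts in lymph node Treg and 4.32 to 4.66% in tumor pTreg.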

How the data were processed

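The deposited table of RSEM expected counts (55413 genes, 12 libraries) was the main input, and the deposited FPKM table, in which the authors scaled fragments by transcript length and library size, was used only in alternatives. Per the submitters' processing notes, BGISEQ-500 reads of TRIzol-extracted total RNA went through STAR 2.7.11a (GRCm38/mm10) and RSEM 1.3.3, with DESeq2 listed among the tools. The gene annotation and strand setting are not given in the sources used here, so reads of overlapping genes could be split between them. The expected counts hold whole numbers as deposited (rounding changed none), and 15705 of 27279 genes with any count passed filterByExpr by group.

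Tests used R 4.3.3 and edgeR 4.0.16 (quasi-likelihood F test, all 12 libraries in 1 fit, group as the only factor, TMM factors), with Benjamini-Hochberg adjustment over all genes tested and calls at an adjusted p below 0.05. The CD3 scale replaced TMM by library sizes proportional to the summed counts of Cd3d, Cd3e, Cd3g and Cd247, which were 18209 to 21787 per lymph node library and 4461 to 4707 per tumor pTreg library. Folds are fitted values, and CPM, printed as mean ± SD over libraries, use library totals. Where a group had no count, 3 counts over the group served as its floor, and a ratio with a 95% interval is given for 1 to 3 counts. Pairs within a group differed beyond sampling noise (1.83 to 3.25 as chi-square over its degrees of freedom), so none was counted as a duplicate deposit; this does not show that they came from separate animals. Alternatives used DESeq2 1.42.0 and limma 3.58.1. Positions come from GENCODE vM21, which held 53292 of the symbols.

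The compared groups and the gene lists were chosen with earlier results of these data known. Named genes are Foxp3, Ifng, Satb1, Gzmk and 13 others set by the question, the genes of each list with the smallest p (up to 4) or lower on the CD3 scale (up to 3), the 12 largest falls, the 12 largest T-linked rises, and from each marker list its 2 members of highest level; some genes the rule names are not reported here. Cd28, Cd69, Cxcr3, Cxcr6, Fasl, Foxo1, Foxp1, Gata3, Gzma, Gzmb, Icos, Ikzf4, Il10, Il12rb2, Il13, Il17a, Il18rap, Il22, Il7r, Klrb1c, Lag3, Lck, Lrrc32, Ncr1, Pdcd1, Stat4, Tigit, Tnfsf11, Trac and Zap70 were added after their values were seen.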

Additional observations from a re-analysis of the deposited data

Results flagged for a closer look

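Of 135 values checked in the lymph node group, 8 had a single library apart from the other 3 by Dixon's test at the 95% level; chance marks about 1 in 20 such groups. Albumin was at 0.174 CPM in replicate 4 and at 0 in the others, and summed erythroid markers were at 1.80 CPM in replicate 4 against 0 to 0.115 CPM. Replicate 4 was also apart for Fasl, at 8.37 CPM against 7.62 to 7.68, and for Gzma, at 0.465 CPM against 0.941 to 0.981. Replicate 1 was apart for Cd27, at 199 CPM against 208 to 209, and for Slc28a2b, at 64.2 CPM against 60.5 to 61.1. Rora was at 89.4 CPM in replicate 3 against 95.6 to 96.7. Sdc1 was at 0.274 CPM in replicate 2 against 0.588 to 0.639. In each of these cases all 4 lymph node libraries stayed on the same side of all 3 tumor pTreg libraries.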

How the results depend on the processing

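Counts of called genes moved by over 1.5 times under a 2-fold limit and under filters on low counts. With at least 2-fold required, 4712 genes were higher and 2785 lower in CPM, and 401 were lower per CD3 count, also 401 on both scales. With a filter at a mean of 5 CPM, 359 were lower per CD3 count, also 359 on both scales, and 26 were higher on both scales and T-linked. With no filter, 180 were T-linked and higher. The T-linked alternatives on filters, and the left-out libraries for that count, were added after seeing the data. Leaving out 1 library at a time gave 7382 to 7473 genes higher and 6108 to 6239 lower in CPM, 14299 to 14452 higher and 577 to 600 lower per CD3 count, 574 to 600 lower on both, and 95 to 106 T-linked and higher. Other references on the CD3 scale gave 455 (Cd3d), 499 (Cd3e), 698 (Cd3g), 676 (Cd247) and 816 (a list of 21 T cell genes) lower genes, and the last shared 604 with the 608 reported. Library totals without TMM moved the median of all genes by -0.10 (log2). Named genes took the other sign per CD3 count with a call only near 0. Itgae was at -0.20 and Trac at -0.23 with the list of 21 T cell genes, and Tnfsf10 was at 0.21, Lck at 0.16 and Gata3 at 0.19 with Cd3e alone; no named gene did so in CPM. Replicate numbers did not pair the groups (correlations of -0.027, 0.028 and -0.042 for numbers 1 to 3), and with the number as a replicate block 6870 genes were higher and 6182 lower in CPM, 13729 higher and 611 lower per CD3 count, and 611 lower on both. Few T cell counts in tumor tTreg (353 to 430 CD3 counts) limit the T-linked label for rare genes.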

Other observations

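The tumor groups also differed in markers of cells other than T cells. Summed fibroblast markers were at 140 to 159 CPM in tumor pTreg and 681 to 807 CPM in tumor tTreg, and summed hepatoma markers at 5438 to 5817 and 8035 to 8387 CPM, without overlap between libraries. B cell and plasma cell markers were at 79.5 to 83.1 and 123 to 133 CPM. Neutrophil markers overlapped, at 46.4 to 48.6 and 42.3 to 46.9 CPM, as did erythroid markers, at 26.1 to 47.0 and 26.0 to 39.2 CPM. These values were not tested.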
